A study of Mus musculus with 6 samples.

Results

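The genes of glycolysis, of the pentose phosphate pathway and of the response to hypoxia were examined in macrophages (MPs) sorted from injured skeletal muscle. They are 41 named genes, taken by symbol from the 13008 genes of the deposited table, and all 41 were present. They comprise 28 genes of glucose uptake, glycolysis and the lactate and pyruvate branch, 6 genes of the pentose phosphate pathway and 7 genes of the hypoxia-inducible factor (HIF) system. Membership was set by symbol, not by a cutoff on values, and the list was chosen with earlier results of these data known. No member passed the test between Control and Cripto KO MPs. The values of the groups did not overlap for 5 members (12.2%, against 14.5% of all genes), with Slc2a3, Pkm and Vhl higher and Pfkl and Egln1 lower in Cripto KO samples. For 33 of the 41 members the 95% interval of the difference lay within 0.5 on the log2 scale on either side of 0.

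RNA-seq was performed on Ly6CLow MPs sorted by FACS from muscles on day 5 after cardiotoxin, a toxin that kills muscle fibers and starts their regeneration. There were 3 Control and 3 Cripto KO samples, all from C57BL/6J mice of 3 months of age that the labels give as male. The labels give the genotype of Control samples as wild type and that of Cripto KO samples as Tg:LysMCre::Cripto-/-. In the latter, Cre from the LysM (Lyz2) locus deletes Cripto in cells of the myeloid lineage, so cells outside that lineage keep the gene. The study's methods describe both groups as also carrying LysM-Cre and a GFP reporter of Cre recombination, and the sort as GFP+/F4/80+/Ly6CLow, so the labels and the methods differ on the Control mice. The study reported the deletion of Cripto as incomplete, and as more extensive in GFP+ cells than among all MPs. Cripto is a cell-surface protein anchored by a glycolipid and a coreceptor of TGFβ family ligands. The level of its gene, Tdgf1, is not analysed here and gave no check of the labels. The sources used here do not say whether a sample is a single mouse or a pool, and the p-values measure the spread between these 3 samples in each group.

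Glycolysis breaks glucose down to pyruvate, which is reduced to lactate and exported, or enters mitochondria and is turned to acetyl-CoA there. The pentose phosphate pathway branches off after hexokinase and yields NADPH and ribose phosphate. When oxygen falls, prolyl hydroxylases no longer mark HIF-1α for destruction by the VHL ubiquitin ligase, and HIF-1 then raises the transcription of glucose transporters, of nearly every glycolytic enzyme, of lactate export and of Vegfa. Inflammatory MPs are known for high glycolysis and HIF-1α activity, and repair-associated MPs such as Ly6CLow cells rely more on oxidative metabolism. HIF binds DNA at short elements with the core letters ACGTG or GCGTG.

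The start regions of the genes are shown since they can hold that core. In the RefSeq windows (GRCm38.p6, 250 bases before to 50 after a gene start), 40 of the 41 members were matched, with 55 windows in all. ACGTG, searched on both strands, was found in 27 windows, which was 49.1%, against 19.6% of all 32817 windows. ACGTG or GCGTG was found in 45 windows, which was 81.8%, against 43.8% of all windows. By sub-group, ACGTG was in 20 of 40 windows of the glycolysis genes, in 1 of 7 of the pentose phosphate genes and in 6 of 8 of the HIF genes. Either core was in 33 of 40 windows of the glycolysis genes, in 6 of 7 of the pentose phosphate genes and in 6 of 8 of the HIF genes. Windows of the same gene can overlap and hold the same match, as those of Aldoa do, and the shares were not matched for base content. These are matches of letters, not binding sites. The 250 bases before the start are given for Slc2a1, Hk2, Ldha and Slc16a3, which carry glucose in, phosphorylate it, make lactate and carry it out. They are written 5′ to 3′ on the gene's strand, with matches to the core on either strand in capitals (CACGT and CACGC are the core read on the other strand, and an overlapping match such as CACGTG counts once for each strand).
Slc2a1 (chr4:119108495-119108744, plus strand): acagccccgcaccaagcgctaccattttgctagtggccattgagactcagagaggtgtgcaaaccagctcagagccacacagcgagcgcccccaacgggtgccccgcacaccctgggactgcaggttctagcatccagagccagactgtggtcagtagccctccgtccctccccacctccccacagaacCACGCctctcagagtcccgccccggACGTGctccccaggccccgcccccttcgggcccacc
Hk2 (chr6:82774455-82774704, minus strand): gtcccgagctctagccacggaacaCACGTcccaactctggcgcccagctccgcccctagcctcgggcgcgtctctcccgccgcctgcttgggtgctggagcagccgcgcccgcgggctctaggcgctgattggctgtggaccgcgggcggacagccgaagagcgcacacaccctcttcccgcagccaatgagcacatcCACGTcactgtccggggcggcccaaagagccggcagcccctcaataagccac
Ldha (chr7:46845554-46845803, plus strand): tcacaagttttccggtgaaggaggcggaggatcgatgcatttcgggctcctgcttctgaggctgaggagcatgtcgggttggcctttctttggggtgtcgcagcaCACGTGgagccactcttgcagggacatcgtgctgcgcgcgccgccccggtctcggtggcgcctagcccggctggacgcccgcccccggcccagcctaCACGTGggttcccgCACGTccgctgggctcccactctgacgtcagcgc
Slc16a3 (chr11:120948817-120949066, plus strand): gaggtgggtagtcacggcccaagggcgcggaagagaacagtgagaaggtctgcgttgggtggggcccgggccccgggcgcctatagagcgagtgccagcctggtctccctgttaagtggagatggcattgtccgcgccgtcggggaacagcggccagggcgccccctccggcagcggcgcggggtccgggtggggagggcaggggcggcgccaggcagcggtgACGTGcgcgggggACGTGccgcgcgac
The Ldha stretch holds 5 matches to ACGTG, while those of Hk2 and Slc16a3 hold 2 each and that of Slc2a1 1. Ldha has another window, at chr7:46846832-46847131 on the plus strand, with no match to ACGTG. Vegfa had 2 windows, with no match to either core in the window at chr17:46032328-46032627 and 1 match to each in the window at chr17:46025114-46025413, both on the minus strand. The values of these genes in the 6 libraries follow below by step of the pathway.

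The deposited value is a normalized signal: the reads of a gene, with 0.5 added, scaled to a library of 1000000 normalized reads, and no value was 0. Whole reads recovered from it summed to 12688968 to 14141773 in Control and 14633880 to 15659847 in Cripto KO libraries. Of the 41 members, 39 had at least 100 reads in every library, and together they took 0.793% to 0.896% of the reads of a library. Among the markers of other cells, muscle fiber markers summed to 62.1 to 121 in Control and 36.9 to 87.4 in Cripto KO MPs (14 of 15 in the table, 7 lower in Cripto KO with an unadjusted p under 0.05), and fibroblast markers to 625 to 658 and 747 to 787 (12 of 12 in the table, 7 higher). Heat-shock genes summed to 15442 to 18717 in Control and 21198 to 23372 in Cripto KO MPs, with 10 of 12 higher at an unadjusted p under 0.05. Neutrophil markers (11 of 13 in the table) summed to 122 to 138 in Control and 147 to 151 in Cripto KO MPs. Mmp9 alone passed the test (adjusted p = 0.0313 in limma), with means of 19.9 in Control and 42.1 in Cripto KO MPs. Csf3r, the highest of these markers, had means of 99.6 in Control and 94.4 in Cripto KO MPs. Of the 11, the log2 fold change was above 0 for 6 and below 0 for 5. The 5 include S100a9, Retnlg and Ngp, which had 0 reads in every library. Only the 0.5 added and its scaling set their direction. The 6 include Camp, which was also near the floor. Endothelial markers (11 of 11) summed to 108 to 131 in Control and 120 to 131 in Cripto KO MPs. Macrophage markers, of which 11 of 12 were in the table, summed to 23382 to 23781 and 22245 to 23871, with none at an unadjusted p under 0.05. Of the neutrophil markers, Ly6g and Elane were not analysed here, while S100a9, Retnlg, Camp and Ngp had at most 3 reads in every library. The Control libraries stood apart from one another. Control replicate 1 had an Xist value of 171, with 0.114 to 0.885 elsewhere, although the labels give all samples as male. Whether the sex label of this library is right was not tested. Control replicate 2 had a value of 11066 for Lyz2, the locus of LysM-Cre, with 21.2 to 28.3 elsewhere. The part of these differences in the results was not tested, and in bulk samples fewer cells of a type and less RNA per cell cannot be told apart.

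In the limma test over all 13008 genes, 0 of the 41 members had an adjusted p under 0.05, against 0.131% of all genes. At an unadjusted p under 0.05 there were 3 members (7.32%), Slc2a3 and Pkm higher and Pfkl lower in Cripto KO MPs, against 8.59% of all genes. The edgeR and DESeq2 tests on the recovered reads gave 0 members at an adjusted p under 0.05 and the same 3 members at an unadjusted p under 0.05. With quantile normalization Pfkl had an unadjusted p of 0.0841 in limma and Pgd one of 0.0440, and Pkm had one of 0.0522 with median centring and 0.0514 with the replicate number as a block. The values of both groups did not overlap for the 5 members named above. The share at an unadjusted p under 0.05, like that without overlap, was near that of all genes. The log2 fold change was below 0 (lower in Cripto KO) for 24 members and above 0 for 17, with a median log2 fold change (Cripto KO over Control) of -0.03 against -0.01 for all genes. The median of the absolute log2 fold change was 0.09 for the members and 0.12 for all genes.

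The 95% interval of the log2 fold change lay within 0.5 on either side of 0 for 80.5% of the members and 56.1% of all genes. It lay within 1 for 40 of the 41 members and 81.7% of all genes, and the exception was Slc2a3. The median within-group SD of the log2 values was 0.12 for the members and 0.17 for all genes. Neither these shares and SDs nor the median absolute log2 fold change above were matched for expression level. The fewest reads in a library were 28 for the members and 0 for all genes. The share of intervals within 0.5 on either side of 0 was 52.6% for the 38 other glycolysis genes described below. For the 11 macrophage markers it was 100%. Among the sub-groups, the median log2 fold change was -0.04 for the 28 glycolysis genes (18 lower in Cripto KO), 0.05 for the 6 pentose phosphate genes (5 higher) and -0.19 for the 7 HIF genes (5 lower).

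**Figure D1:**
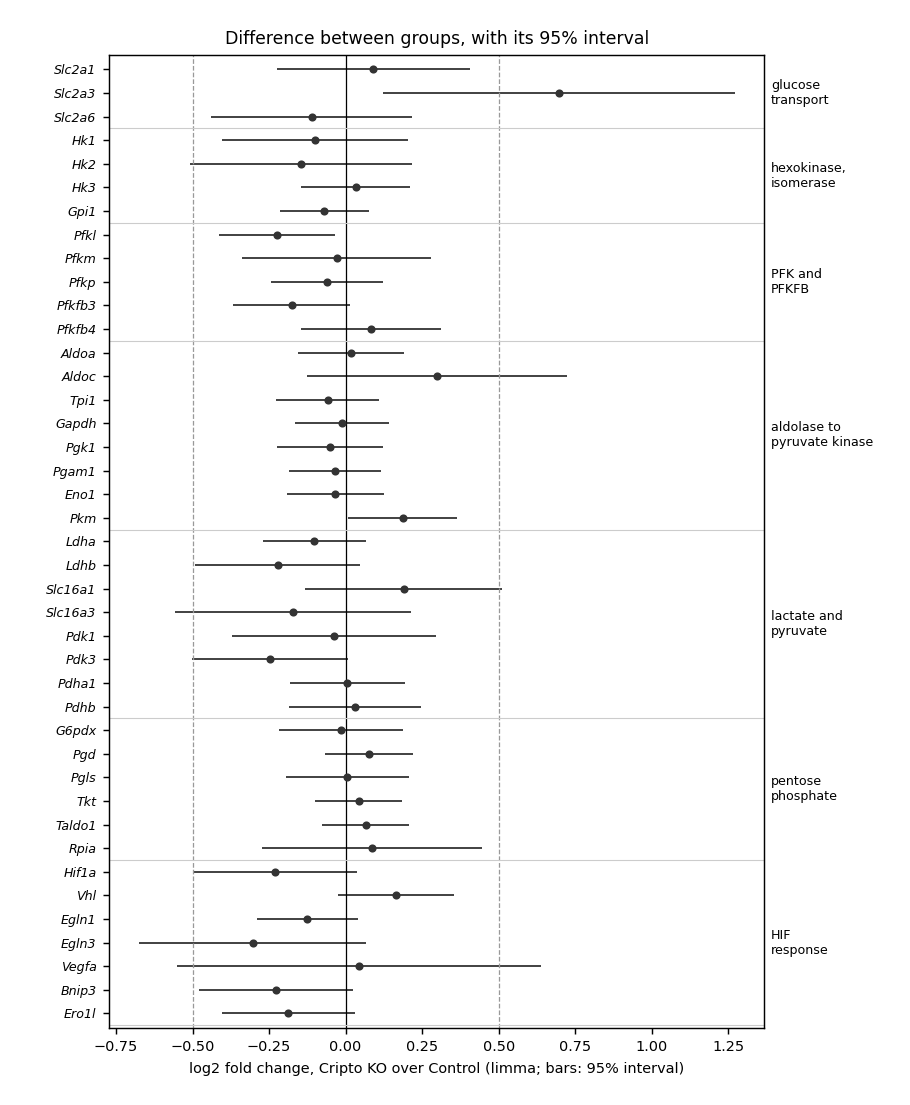
Log2 fold change of each of the 41 genes, Cripto KO over Control, from limma on 3 libraries in each group; points are estimates, bars 95% intervals, dashed lines -0.5 and 0.5. The intervals of Slc2a3, Pfkl and Pkm exclude 0, and that of Slc2a3 is the only one that passes 1.

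Glucose enters through transporters of the Slc2a family, of which 3 were members. Slc2a1, which encodes GLUT1, the transporter for basal uptake and the highest of these 3 per kilobase of exons, was 198, 132 and 168 in Control replicates 1, 2 and 3, and 158, 172 and 196 in Cripto KO replicates 1, 2 and 3. The groups overlapped, with the lowest value in Control replicate 2 and the highest in Control replicate 1, and the log2 fold change was 0.09 (95% interval -0.22 to 0.41). Slc2a3 (chr6:122727809-122801640, minus strand; positions of genes are those of GENCODE on GRCm38), which encodes the high-affinity transporter GLUT3, was 2.10, 3.37 and 3.55 in Control replicates 1, 2 and 3, and 5.62, 4.64 and 4.10 in Cripto KO replicates 1, 2 and 3. All 3 Cripto KO libraries lay above all 3 Control libraries, and the log2 fold change was 0.70 ± 0.25 (SE; 95% interval 0.12 to 1.27), with an unadjusted p of 0.0226 and an adjusted p of 0.517 in limma. It was the member with the lowest level, at 28 to 88 reads in a library, and with pseudocounts of 0.5 and 1 its log2 fold change was 0.61 and 0.54. Without Cripto KO replicate 1, the library with the highest value, it was 0.57 with an unadjusted p of 0.0825 in limma. Without Control replicate 1, the library with the lowest value, it was 0.46 with an unadjusted p of 0.0728 in limma. Slc2a3 took 0.483% to 1.60% of the signal per kilobase of the 3 transporters in a library, and Slc2a1 91.6% to 94.4%. Slc2a6, an intracellular transporter, was 9.80 ± 0.131 in Control and 9.14 ± 1.42 in Cripto KO MPs (mean ± SD, n = 3 in each group, here and below).

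Hexokinases trap glucose in the cell as its phosphate. Hk3, the myeloid hexokinase and the highest of the family per kilobase, was 160.2, 157 and 176 in Control replicates 1, 2 and 3, and 179, 154 and 171 in Cripto KO replicates 1, 2 and 3. The groups overlapped, with a log2 fold change of 0.03 (95% interval -0.15 to 0.21). Hk2, the inducible HIF target, was 107, 68.8 and 77.9 in Control replicates 1, 2 and 3, and 63.6, 81.0 and 82.1 in Cripto KO replicates 1, 2 and 3. It was chosen for full values after they were seen, since Control replicate 1 lay above the other 5 libraries, which ranged from 63.6 to 82.1. The log2 fold change of Hk2 was -0.15, and without Control replicate 1 it was 0.04. Hk1, the constitutive hexokinase, was 56.3 ± 10.9 in Control and 52.0 ± 3.26 in Cripto KO MPs. Hk3 made up 68.4% ± 4.77 in Control and 70.9% ± 3.69 in Cripto KO MPs of the signal per kilobase of the 3 hexokinases, and Hk2 21.5% ± 3.78 in Control and 19.7% ± 2.92 in Cripto KO MPs. Gpi1, which converts the glucose phosphate to the fructose phosphate, was 520.2 ± 14.5 in Control and 496 ± 20.2 in Cripto KO MPs, with a log2 fold change of -0.07 (95% interval -0.21 to 0.08).

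Phosphofructokinase catalyzes the committed step. Pfkl (chr10:77986947-78010083, minus strand), the liver-type subunit and the highest of the 3 per kilobase, was 90.2, 89.5 and 96.3 in Control replicates 1, 2 and 3, and 87.9, 73.2 and 75.9 in Cripto KO replicates 1, 2 and 3. All 3 Cripto KO libraries lay below the lowest Control library, by the least in replicate 1. The log2 fold change was -0.22 ± 0.08 (SE; 95% interval -0.41 to -0.04), with an unadjusted p of 0.0250 and an adjusted p of 0.523 in limma. Leaving out 1 library at a time gave -0.30 to -0.17, with unadjusted p-values of 0.00358 to 0.0983 in limma. Pfkp, the platelet-type subunit, was 71.9 ± 5.15 in Control and 68.9 ± 4.18 in Cripto KO MPs, and Pfkm, the muscle-type subunit, 10.4 ± 1.18 in Control and 10.2 ± 0.821 in Cripto KO MPs. Pfkl made up 61.9% ± 1.45 in Control and 59.0% ± 2.52 in Cripto KO MPs of the signal per kilobase of the 3 subunits, and these shares overlapped. The share of Pfkm was 14.0% ± 0.847 in Control and 15.3% ± 0.363 in Cripto KO MPs, and did not overlap between the groups. No other member's share in its family was without overlap. The values of Pfkm itself overlapped, with a log2 fold change of -0.03. Its mean share over all libraries was 14.6%, and 10.4% with the length of the longest transcript. Pfkfb3, which makes the bisphosphate that activates phosphofructokinase, was 233, 258 and 285 in Control replicates 1, 2 and 3, and 235, 234 and 215 in Cripto KO replicates 1, 2 and 3. Control replicate 1 lay within the range of the Cripto KO libraries and the other 2 Control libraries above it, and the log2 fold change was -0.18 (95% interval -0.37 to 0.01; unadjusted p = 0.0652 in limma). Pfkfb4, a paralog, was 35.6 ± 2.12 in Control and 37.8 ± 4.42 in Cripto KO MPs.

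The steps from aldolase to pyruvate kinase held 6 of the 7 highest members per kilobase. Per kilobase of exons, the mean level over the 6 libraries was highest for Aldoa at 352, followed by Pgam1 at 275, Pkm at 260.2, Pgk1 at 191, Ldha at 189, Tpi1 at 161 and Eno1 at 141. The order depends on the length used: with the longest transcript, a choice made after seeing the data, it was Aldoa at 661, Pkm at 535, Eno1 at 374, Ldha at 345, Pgam1 at 307, Tpi1 at 276 and Pgk1 at 235, so the same 7 genes led. Aldoa, which splits the fructose bisphosphate, was 1029, 948 and 1080.0 in Control replicates 1, 2 and 3, and 1036, 985 and 1069.6 in Cripto KO replicates 1, 2 and 3. The groups overlapped, and its log2 fold change was 0.02 (95% interval -0.16 to 0.19). Aldoc, the brain-type aldolase, was 4.98 ± 0.973 in Control and 6.06 ± 0.505 in Cripto KO MPs and took 0.372% to 0.570% of the signal per kilobase of both. Gapdh, which makes NADH in glycolysis, is given in full beyond the rule for named genes since it was the reference gene of the study's quantitative RT-PCR. It was 294, 281 and 308 in Control replicates 1, 2 and 3, and 308, 278 and 289 in Cripto KO replicates 1, 2 and 3. Its values overlapped, and the log2 fold change of -0.01 had a 95% interval of -0.17 to 0.14. It turned positive, at 0.04, with quantile normalization.

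Pkm (chr9:59656368-59679375, plus strand), which encodes the pyruvate kinases of muscle and of proliferating cells, was 1178, 1156 and 1320.3 in Control replicates 1, 2 and 3, and 1398, 1333 and 1423 in Cripto KO replicates 1, 2 and 3. All 3 Cripto KO libraries lay above all 3 Control libraries, by the least between Control replicate 3 and Cripto KO replicate 2. The log2 fold change was 0.19 ± 0.08 (SE; 95% interval 0.01 to 0.36), with an unadjusted p of 0.0413 and an adjusted p of 0.555 in limma. Leaving out 1 library at a time gave 0.15 to 0.25, with unadjusted p-values of 0.0214 to 0.129 in limma. The table sums the transcripts of Pkm, so its isoforms were not told apart. Between Aldoa and Pkm, the triose phosphate isomerase Tpi1 was 452 ± 34.6 in Control and 434 ± 18.8 in Cripto KO MPs. Pgk1, which makes ATP, was 436 ± 36.6 in Control and 420.5 ± 15.8 in Cripto KO MPs. Pgam1, the phosphoglycerate mutase, was 552 ± 31.7 in Control and 538 ± 4.35 in Cripto KO MPs. Eno1, the enolase, was 767 ± 41.1 in Control and 749 ± 27.1 in Cripto KO MPs. The log2 fold changes of these 4 genes were between -0.06 and -0.03, and their 95% intervals all lay within 0.5 on either side of 0.

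Several members have processed pseudogenes, paralogs or overlapping genes that share sequence with them. Of the 41 members, 16 shared over 10% of their 31-base words with another gene of the annotation, among them Bnip3 with 57.0%, Pgk1 with 54.7%, Pgam1 with 37.1%, Pkm with 34.7%, Ldhb with 33.0%, Eno1 with 28.5% and Gapdh with 28.1%. Their levels are uncertain to that extent, as counting could split reads between copies. Slc2a3 shared 2.48% and Pfkl 0.463% of their words, and Vhl, Egln1, Egln3, Slc16a1 and Slc16a3 shared none.

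**Figure D2:**
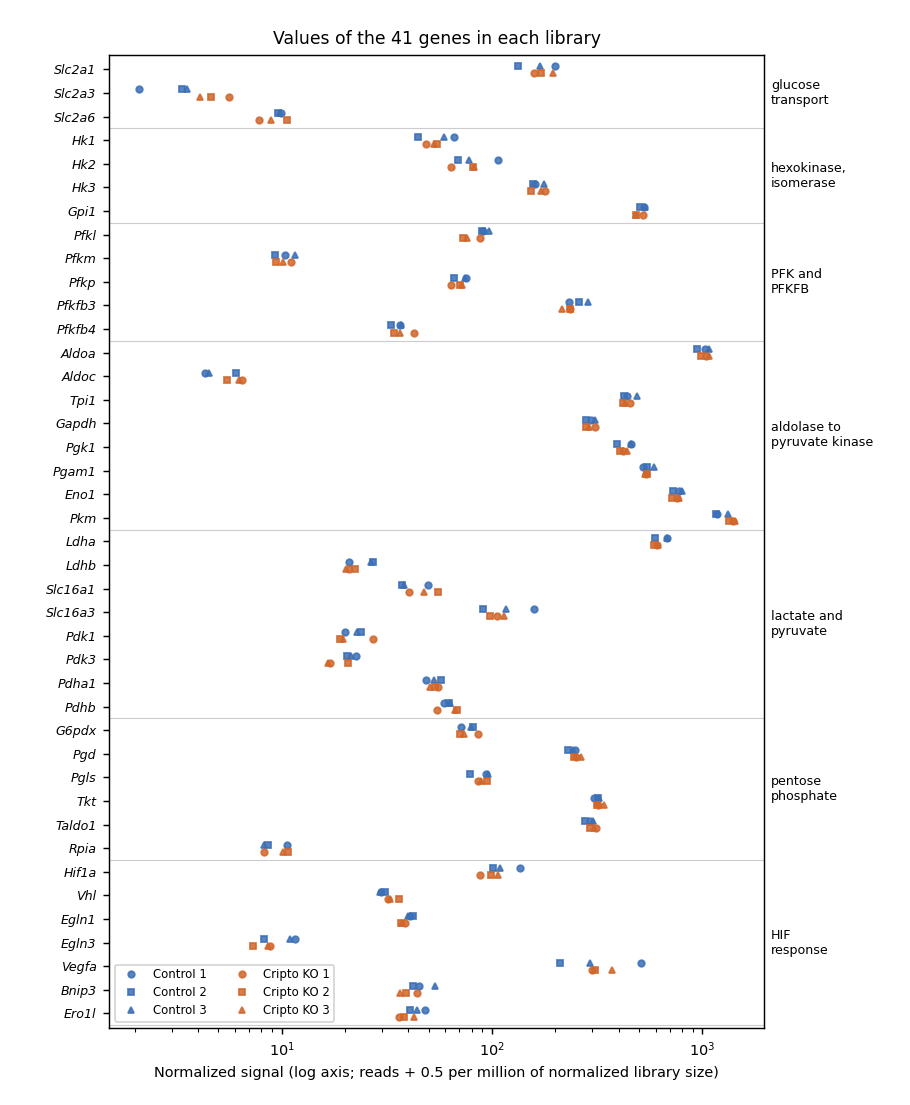
Deposited normalized signal of each of the 41 genes on a log axis, with Control libraries in blue, Cripto KO libraries in orange and the replicate number as the symbol. Most groups overlap; values reach from 2.10 for Slc2a3 to 1423 for Pkm, and Vegfa spreads most within Control.

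Pyruvate is turned to lactate by lactate dehydrogenase. Ldha, the subunit that favors lactate and the higher of the pair per kilobase, was 680.0, 593 and 677 in Control replicates 1, 2 and 3, and 611, 586 and 615 in Cripto KO replicates 1, 2 and 3. Control replicate 2 lay among the Cripto KO libraries and the other 2 Control libraries above them, with a log2 fold change of -0.10 (95% interval -0.27 to 0.07). Ldhb, the heart-type subunit, was 24.9 ± 3.49 in Control and 21.2 ± 1.08 in Cripto KO MPs, with a log2 fold change of -0.22 (95% interval -0.49 to 0.05). Ldha made up 92.5% ± 1.38 in Control and 93.1% ± 0.499 in Cripto KO MPs of the signal per kilobase of both. Slc16a3, the lactate exporter MCT4, was 159, 90.6 and 116 in Control replicates 1, 2 and 3, and 106, 98.1 and 114 in Cripto KO replicates 1, 2 and 3. Control replicates 1 and 2 were the highest and the lowest of the 6, so the Cripto KO libraries lay inside the Control range, and the log2 fold change was -0.17 (95% interval -0.56 to 0.22). Leaving out Control replicate 1 gave 0.04, and leaving out Control replicate 2 gave -0.37. Slc16a1, the lactate transporter MCT1, was 41.8 ± 6.99 in Control and 47.7 ± 7.55 in Cripto KO MPs. Between these 2 members, the share of Slc16a3 in the signal per kilobase was 70.4% ± 3.12 in Control and 64.9% ± 4.72 in Cripto KO MPs.

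Pyruvate dehydrogenase turns pyruvate to acetyl-CoA in mitochondria, and its kinases switch it off. Pdk3, the higher per kilobase of the members Pdk1 and Pdk3, was 22.6, 20.4 and 21.3 in Control replicates 1, 2 and 3, and 17.0, 20.7 and 16.6 in Cripto KO replicates 1, 2 and 3. Cripto KO replicate 2 lay within the Control range and the other 2 Cripto KO libraries below it, and the log2 fold change was -0.25 (95% interval -0.50 to 0.01; unadjusted p = 0.0568 in limma). Pdk1, the HIF-induced kinase, was 22.2 ± 1.98 in Control and 21.9 ± 4.54 in Cripto KO MPs. The pyruvate dehydrogenase subunits had close means in both groups. Pdha1 was 53.1 ± 4.32 in Control and 53.3 ± 2.32 in Cripto KO MPs. Pdhb was 61.6 ± 2.36 in Control and 63.2 ± 7.44 in Cripto KO MPs. Their 95% intervals ran from -0.18 to 0.19 and from -0.18 to 0.25 on the log2 scale.

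**Figure D3:**
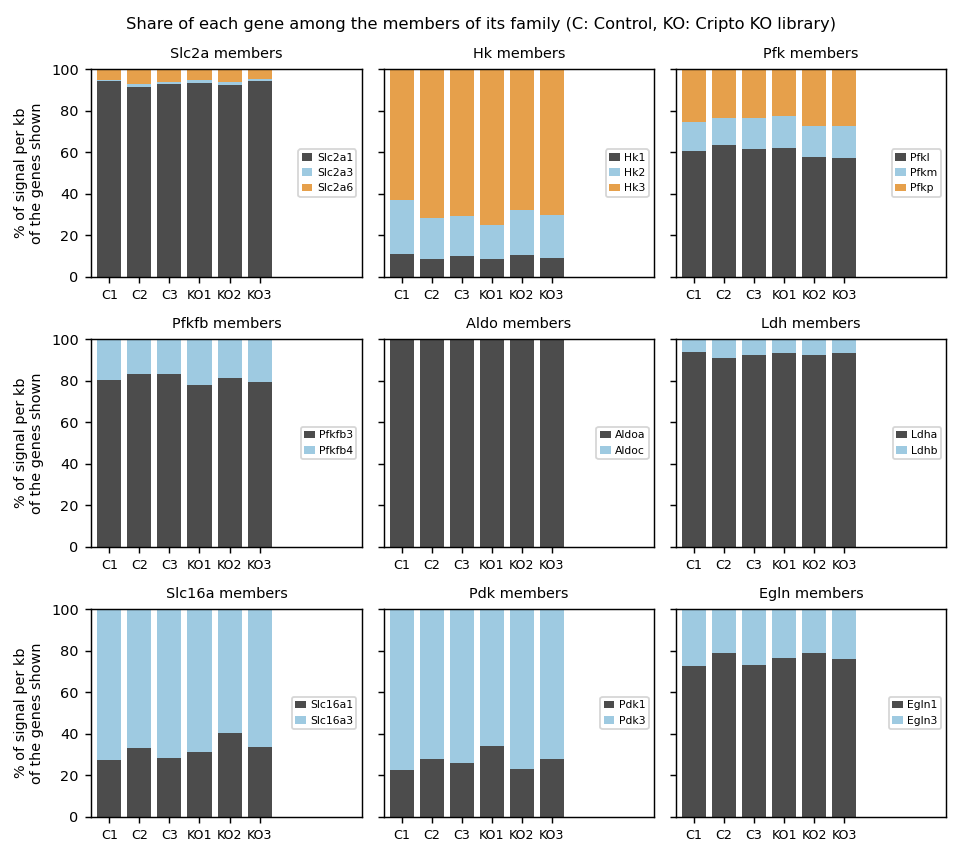
Share of each gene in the signal per kilobase of exons of the members of its family, in percent, as stacked bars for each library (C, Control; KO, Cripto KO; number, replicate). Slc2a1, Hk3, Pfkl, Pfkfb3, Aldoa, Ldha, Slc16a3, Pdk3 and Egln1 hold the largest share among the members shown in all 6 libraries; measured paralogs that are not members, such as Egln2 and Slc16a10, are not part of the bars.

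Of the 3 sub-groups, the pentose phosphate genes had the smallest median absolute log2 fold change, 0.05 against 0.09 for glycolysis and 0.19 for HIF genes. Their log2 fold changes were between -0.02 and 0.09, and all 6 intervals lay within 0.5 on either side of 0. G6pdx, the rate-limiting dehydrogenase that makes NADPH, was 77.2 ± 5.05 in Control and 76.6 ± 7.77 in Cripto KO MPs. Pgls, the lactonase, was 89.4 ± 9.31 in Control and 89.5 ± 4.30 in Cripto KO MPs. Pgd, the second dehydrogenase, was 240.3 ± 8.45 in Control and 253 ± 10.6 in Cripto KO MPs. Of the enzymes that rearrange the sugars, transketolase (Tkt) was 316 ± 9.40 in Control and 325 ± 13.2 in Cripto KO MPs, and transaldolase (Taldo1) was 290.3 ± 11.9 in Control and 304 ± 9.28 in Cripto KO MPs. Rpia, which makes ribose phosphate, was the lowest of the 6 at 9.12 ± 1.27 in Control and 9.68 ± 1.30 in Cripto KO MPs. The groups overlapped for every one of these 6 genes. With 137 per kilobase, Taldo1 was the highest of them.

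Of the HIF system, Hif1a, the oxygen-regulated subunit, was 136, 101 and 109 in Control replicates 1, 2 and 3, and 87.7, 98.5 and 107 in Cripto KO replicates 1, 2 and 3. It was chosen for full values after they were seen. Control replicate 1 was the highest and Cripto KO replicate 1 the lowest, and the groups overlapped, with a log2 fold change of -0.23 (95% interval -0.50 to 0.04; unadjusted p = 0.0823 in limma). Vhl (chr6:113623959-113631633, plus strand), which encodes the ligase subunit that binds hydroxylated HIF-1α, was 29.8, 30.99 and 29.3 in Control replicates 1, 2 and 3, and 32.0, 36.1 and 32.9 in Cripto KO replicates 1, 2 and 3. All Cripto KO libraries lay above all Control libraries, and the log2 fold change was 0.16 (95% interval -0.02 to 0.35; unadjusted p = 0.0804, adjusted p = 0.649 in limma). Egln1 (chr8:124908587-124949324, minus strand), the main HIF prolyl hydroxylase (PHD2), was 40.9, 42.2 and 39.9 in Control replicates 1, 2 and 3, and 38.4, 37.1 and 37.3 in Cripto KO replicates 1, 2 and 3. All Cripto KO libraries lay below all Control libraries, and the log2 fold change was -0.12 (95% interval -0.29 to 0.04; unadjusted p = 0.121, adjusted p = 0.690 in limma). Egln1 made up 74.8% ± 3.68 in Control and 77.2% ± 1.54 in Cripto KO MPs of the signal per kilobase of it and Egln3, and the paralog Egln2, not a member, is not in that share. Egln3, the hydroxylase that HIF itself induces, was 10.3 ± 1.73 in Control and 8.26 ± 0.809 in Cripto KO MPs, with a log2 fold change of -0.30 (95% interval -0.68 to 0.07).

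Vegfa (chr17:46016993-46032369, minus strand), the HIF target that encodes the main angiogenic factor, was 512, 211 and 291 in Control replicates 1, 2 and 3, and 299, 308 and 373 in Cripto KO replicates 1, 2 and 3. It was chosen for full values after they were seen, since its spread within the groups was the largest of all members, with an SD of 0.48 on the log2 scale. Of the 1666 genes with a mean value of 100 or more, 0.840% had a larger SD. The Cripto KO libraries lay inside the Control range, which spanned Control replicate 2 at the low end and Control replicate 1 at the high end. The log2 fold change was 0.04 (95% interval -0.55 to 0.64). Without Control replicate 1 it was 0.39 (unadjusted p = 0.0205 in limma), and without Control replicate 2 it was -0.25, so the direction changed with a single library. On the recovered reads it was -0.04 in edgeR and -0.04 in DESeq2. Bnip3, a mitophagy receptor and HIF target, was 46.9 ± 6.01 in Control and 39.9 ± 3.87 in Cripto KO MPs. It shares 46.7% of its words with ENSMUSG00000115801, which had a mean of 289 in Control and 284 in Cripto KO MPs. Ero1l, the oxidase that forms disulfides in the endoplasmic reticulum, was 44.3 ± 3.65 in Control and 38.9 ± 3.46 in Cripto KO MPs. Their log2 fold changes were -0.23 (95% interval -0.48 to 0.02) and -0.19 (95% interval -0.40 to 0.03).

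The Control libraries differed from one another in many of these genes. Control replicate 2 was the lowest of the 3 Control libraries for 28 of the 41 members (68.3%), against 33.7% of all genes. Control replicate 1 was the highest of all 6 libraries for 11 of the 41 members (26.8%, against 21.3% of all genes), and for 4 of the 7 HIF genes. The order replicate 1 above replicate 3 above replicate 2 was seen in 14 of 41 members (34.1%, against 21.2% of all genes), among them Slc2a1, Hk2, Slc16a3, Hif1a and Vegfa. These shares are descriptions and were not tested. Replicate 1 is the Control library with the Xist reads, the highest muscle fiber sum and the lowest sum of proliferation genes (465, against 528 to 588 in the other 5), and replicate 2 the library with the Lyz2 reads. The part of either in these values was not tested.

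Without Control replicate 2, 10 of the 41 members (24.4%) had an unadjusted p under 0.05 in limma, against 7.97% of all genes, and 8 of them were lower in Cripto KO MPs. The 8 were Egln3, Hk1, Slc16a3, Hif1a, Bnip3, Pfkl, Ero1l and Ldha. Without Control replicate 1 there were 5 (12.2%, against 10.5% of all genes), which were Ldhb, Pfkfb3 and Pfkl lower and Vegfa and Slc16a1 higher in Cripto KO MPs. Leaving out any of the other 4 libraries gave 2 or 3 members. In none of these fits did a member have an adjusted p under 0.05. The median log2 fold change of the 7 HIF genes moved from -0.19 to -0.13 when Control replicate 1 was left out, and to -0.25 when Control replicate 2 was.

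**Figure D4:**
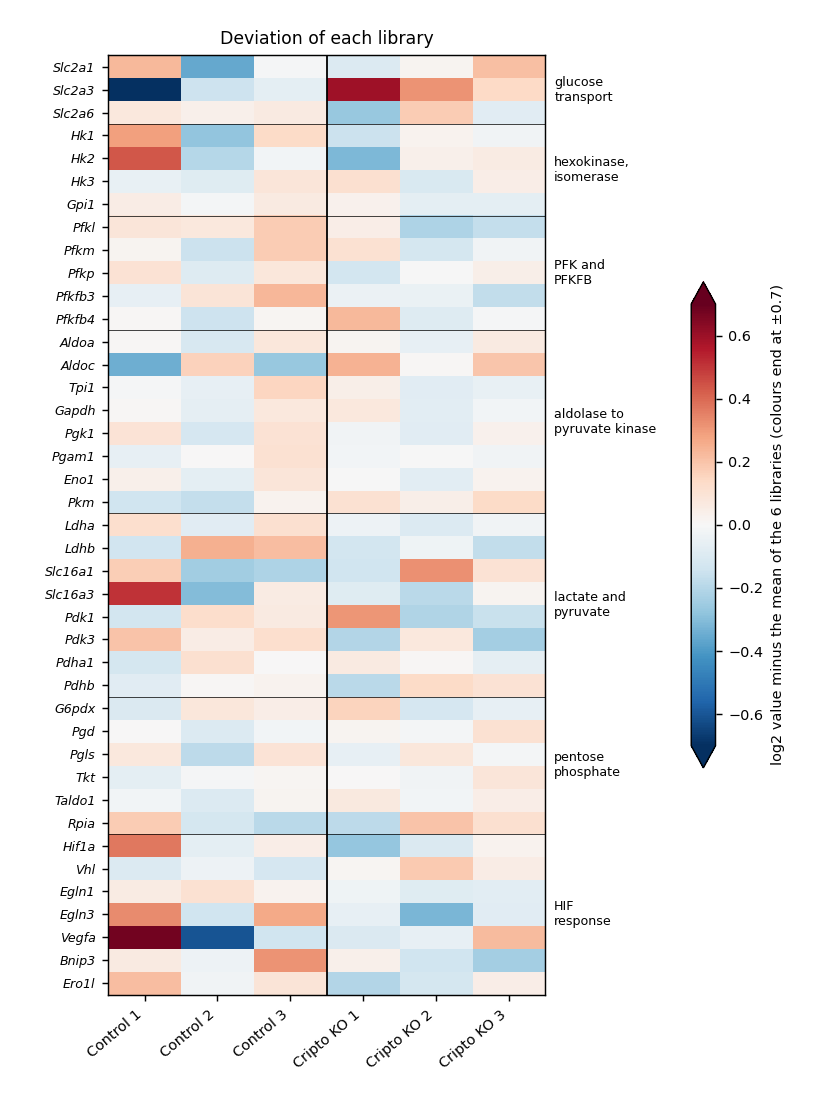
Log2 value of each of the 41 genes in each library minus that gene's mean over the 6 libraries, from blue (lower) to red (higher), with colours ending at 0.7 on either side. Vegfa, Slc16a3, Hk2 and Hif1a are highest in Control 1 (first column), and Slc2a3 is lower in all 3 Control than in all 3 Cripto KO libraries.

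Further genes of the same pathways were taken from lists by function. Of 52 other genes of glycolysis and its regulation, 38 were in the table, and none had an unadjusted p under 0.05, with a median log2 fold change of -0.03. Of 14 other genes of the pentose phosphate pathway and of sugar phosphate use, 13 were in the table, 0 had an adjusted p under 0.05 and 3 had an unadjusted p under 0.05 (23.1%, against 8.59% of all genes), all lower in Cripto KO MPs. Pgm2l1, a glucose bisphosphate synthase, was 19.0, 17.8 and 17.3 in Control replicates 1, 2 and 3, and 14.8, 15.2 and 13.8 in Cripto KO replicates 1, 2 and 3 (log2 fold change -0.31, unadjusted p = 0.0139 in limma). Prpsap2, a subunit associated with ribose phosphate pyrophosphokinase, was 20.7, 21.5 and 20.8 in Control replicates 1, 2 and 3, and 18.5, 18.2 and 17.7 in Cripto KO replicates 1, 2 and 3 (log2 fold change -0.21, unadjusted p = 0.0458 in limma). Rpe, the ribulose phosphate epimerase, was 24.04, 23.7 and 25.4 in Control replicates 1, 2 and 3, and 22.1, 20.8 and 20.7 in Cripto KO replicates 1, 2 and 3 (log2 fold change -0.20, unadjusted p = 0.0482 in limma). The groups did not overlap for any of the 3 genes. Of 45 other symbols listed for the HIF response, 37 were in the table. The list held Eloc and Elob also under their older symbols Tceb1 and Tceb2, which were not in the table. Of the 37, 0 had an adjusted p under 0.05 and 5 had an unadjusted p under 0.05 in limma (13.5%, against 8.59% of all genes). All 5 were lower in Cripto KO MPs, while the median log2 fold change over the 37 was 0.00.

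The smallest p of these was that of Cited2, a HIF target that competes with HIF-1α for its coactivators. Cited2 was 173, 205 and 199 in Control replicates 1, 2 and 3, and 150.3, 140.3 and 132 in Cripto KO replicates 1, 2 and 3. All Cripto KO libraries lay below all Control libraries, and the log2 fold change was -0.44 ± 0.08 (SE), with an adjusted p of 0.156 in limma. Over the alternatives its adjusted p ranged from 0.00326 with DESeq2 to 0.615 without Cripto KO replicate 3. P4ha1, a collagen prolyl hydroxylase, was 142, 135 and 129 in Control replicates 1, 2 and 3, and 105, 112 and 124 in Cripto KO replicates 1, 2 and 3 (log2 fold change -0.26, unadjusted p = 0.00947 in limma). Its paralog P4ha2 was 7.10, 5.56 and 8.77 in Control replicates 1, 2 and 3, and 4.03, 4.35 and 5.96 in Cripto KO replicates 1, 2 and 3 (log2 fold change -0.58, unadjusted p = 0.0301 in limma). The groups did not overlap for P4ha1 and overlapped for P4ha2. Ak4, a mitochondrial adenylate kinase, was 3.06, 3.22 and 4.37 in Control replicates 1, 2 and 3, and 1.56, 1.73 and 2.65 in Cripto KO replicates 1, 2 and 3 (log2 fold change -0.86, unadjusted p = 0.0132 in limma). Siah2, a ubiquitin ligase for the HIF prolyl hydroxylases, was 57.0, 51.4 and 50.1 in Control replicates 1, 2 and 3, and 39.7, 47.7 and 46.1 in Cripto KO replicates 1, 2 and 3 (log2 fold change -0.25, unadjusted p = 0.0258 in limma). For both, all Cripto KO libraries lay below all Control libraries.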

How the data were processed

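RNA-seq of FACS-sorted Ly6CLow MPs from 3 Control and 3 Cripto KO samples was analyzed. The authors trimmed reads with cutadapt (version 1.7.1), quantified them with RSEM (version 1.2.20) on GRCm38 and normalized them with limma (the submitters' processing notes also name edgeR), and the deposited normalized signal is the reads of a gene plus 0.5, scaled to 1000000 normalized reads. Libraries were made with the NEBNext Ultra RNA kit. Whether counting used strand is not given in the sources used here. Whole reads were recovered from 100.0% of 78048 values within 0.01 read, at a median total of 13717340 in Control and 14691843 in Cripto KO samples.

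Groups followed the labels. log2 values without a pseudocount were tested with limma (version 3.58.1, R 4.3.3; lmFit and eBayes with a variance trend) over all 13008 genes, with Benjamini-Hochberg adjustment and 2-sided p-values. Alternatives were edgeR (version 4.0.16) and DESeq2 (version 1.42.0) on the recovered reads, quantile normalization, median centring, pseudocounts of 0.5 or 1, a minimum mean value of 1, the robust option, the replicate number as a block, and fits that lacked 1 library each. The tests were run on simulated data beforehand.

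The members and gene lists were chosen with earlier results of these data known. Values per sample are given for members with an unadjusted p under 0.05, for those whose groups do not overlap and for the highest member per kilobase of each family, and for other pathway genes the up to 6 with the smallest unadjusted p under 0.05 in each list. Members given in full beyond this rule are named as such. Levels per kilobase used merged exon lengths of GENCODE mouse release 21, which also gave positions and shared 31-base words. Promoters came from RefSeq, with Ero1l matched as Ero1a and none matched for Slc2a3. Figures were made with Python 3.11.15 and matplotlib 3.10.9.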

Additional observations from a re-analysis of the deposited data

How the results depend on the processing

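No member was called in any of the 15 alternative settings, in which the lowest adjusted p of a member was 0.297. Of the 615 log2 fold changes, 1 for each member and alternative, 576 kept their direction and 39 reversed, and 23 members never reversed. The largest main difference among the 18 that did was 0.17 in absolute value, and no member with a larger difference reversed. With all 6 libraries, the reversed values were 0.0359 for Gapdh, 0.0377 for Pgam1, 0.0227 for Eno1 and 0.0242 for G6pdx with quantile normalization, 5.41e-06 for G6pdx and -0.0373 for Vegfa with edgeR, and -0.0391 for Vegfa with DESeq2. Over the fits that leave out 1 library each, the log2 fold change ran from -0.0653 to 0.227 for Slc2a1, from -0.262 to 0.0216 for Hk1, from -0.281 to 0.0364 for Hk2, from -0.0144 to 0.0955 for Hk3, from -0.112 to 0.0519 for Pfkm, from -0.00800 to 0.151 for Pfkfb4, from -0.0342 to 0.0601 for Aldoa, from -0.0998 to 0.00352 for Tpi1, from -0.0521 to 0.0210 for Gapdh, from -0.0716 to 0.0102 for Pgam1, from -0.366 to 0.0387 for Slc16a3, from -0.203 to 0.0578 for Pdk1, from -0.0549 to 0.0627 for Pdha1, from -0.0279 to 0.132 for Pdhb, from -0.0957 to 0.0412 for G6pdx, from -0.0835 to 0.0565 for Pgls and from -0.248 to 0.393 for Vegfa. The number of genes called over the whole table was 17, and 6 with quantile normalization, 71 with DESeq2, 31 with the robust option, 2 with the replicate block and 5 to 31 on leaving out 1 library, the most without Control replicate 1 and the fewest without Cripto KO replicate 2. The sub-group medians moved by less than the spread between replicates, and that of glycolysis turned to 0.0012 without Control replicate 3. With the longest transcript as length, the share was 66.1% for Pfkl, 99.7% for Aldoa, 95.1% for Ldha and 68.7% for Pdk3, from 60.5%, 99.5%, 92.8% and 73.0%. Same-numbered libraries did not deviate together (correlations across genes of -0.21, -0.0052 and -2.5e-05). With 3 libraries in each group, these correlations cannot show whether same-numbered samples shared a day or batch. The main test used no block, and the replicate block called 0 members. Depth limits Slc2a3, at 28 to 88 reads.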
